A study of Mus musculus with 8 samples.

Results

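The low-density lipoprotein (LDL) receptor family was followed in macrophages of mouse epididymal white adipose tissue (eWAT). Its members were the 9 genes Vldlr, Lrp1, Lrp3, Lrp5, Lrp6, Lrp8, Lrp10, Lrp12 and Sorl1, found by symbol among the 17740 genes of the table for mice on a high-fat diet (HFD) and the 16436 genes of the table for mice on a normal diet (ND, chow). All 9 were in both tables and passed the filter on low counts in both diets. The question was whether a lower level of Lrp8 and Lrp3 in adhesion-related macrophages (ARMs) is shared by the rest of the family.

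Wild-type C57BL/6J males were put on a diet at 6 weeks of age, and the HFD, with 60% fat, was given for 8 weeks. ARMs were sorted from cells that stay attached to adipocytes, and SMs, which the sample labels call NARM, from the stromal vascular fraction of the same fat depot. By the paper's methods the adipocyte layer was vortexed with beads to break the adipocytes before ARMs were collected. No such step is given for SMs, and its effect on the levels was not tested. HFD ARMs, HFD SMs, ND ARMs and ND SMs make 4 groups of 2 libraries, each library a pool of 6 HFD mice or 10 ND mice. Total counts were 18415520 and 18288775 in HFD ARMs, 19040133 and 18992793 in HFD SMs, 16319038 and 14508824 in ND ARMs, and 14861075 and 15833762 in ND SMs. Nothing in the sources used here says that the replicates were pooled from separate animals, and the p-values measure the spread between these libraries.

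Members of the family are membrane receptors that carry cysteine-rich LDL receptor repeats, bind ligands outside the cell and carry them into endosomes. Lrp8 and Vldlr bind apolipoprotein E and reelin and signal through the adaptor Dab1, and Vldlr also takes up triglyceride-rich lipoproteins together with lipoprotein lipase in fat, heart and muscle. Lrp1 is a large scavenging receptor for apolipoprotein E, proteases and their inhibitors, Lrp5 and Lrp6 are co-receptors for Wnt proteins, and Lrp3, Lrp10 and Lrp12 form a group with CUB domains. Sorl1 joins LDL receptor repeats to a VPS10P domain and sorts cargo such as the amyloid precursor protein between the Golgi and endosomes.

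The fall in ARMs was not a property of the whole family. In HFD mice Lrp8 and Lrp3 fell in ARMs by a similar amount, Sorl1 rose, and the other 6 members did not pass the test. In ND mice only Vldlr passed, with a higher level in ARMs, and neither Lrp8 nor Lrp3 did. A gene passed when its fold change was over 1.5 and its adjusted p under 0.05 in the quasi-likelihood test of edgeR, after Benjamini-Hochberg adjustment over all genes tested. In HFD mice 3 of the 9 members passed, against 4.75% of the 13337 genes tested. By direction these were 2 lower members, against 0.292% of all genes, and 1 higher member, against 4.46%. With other processing the count in HFD mice was 3 with DESeq2, 0 without a filter on low counts and 0 to 2 with limma. The lower level of Lrp8 and Lrp3 was known when the family was chosen, so the count of lower members is a description. In ND mice 1 of the 9 members passed, against 3.68% of the 12441 genes tested. It was 1 higher member against 3.55% of all genes, and 0 members were lower, against 0.129%. DESeq2 also called 0 members lower in ND mice, and in the edgeR fit Vldlr alone had an unadjusted p under 0.05.

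The median log2 fold change of the 9 members was 0.02 in HFD mice, where that of all genes was -0.01, and 0.04 in ND mice, where that of all genes was -0.02. For 6 members in HFD mice the ARM pair lay wholly above or wholly below the SM pair, 3 above and 3 below, against 50.4% of all genes tested. The same held for 2 members in ND mice, 1 above and 1 below, against 43.3% of all genes. The smallest two-sided p that an exact permutation of 2 against 2 libraries can reach is 0.333, and the calls therefore lean on a spread estimated from many genes.

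**Figure D1:**
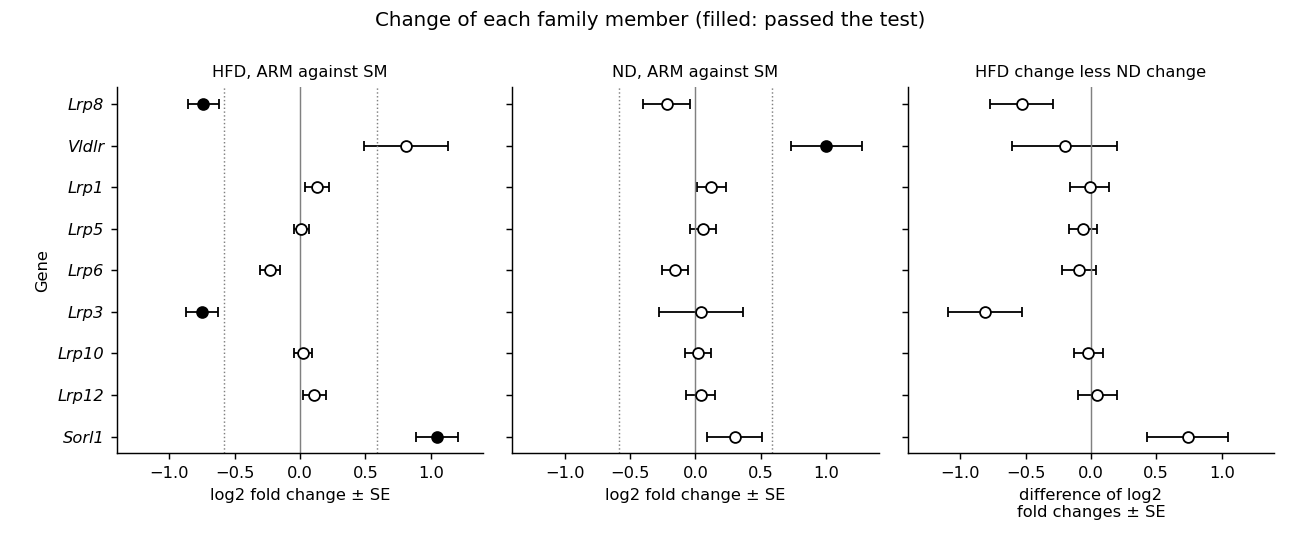
Log2 fold change of each family member, ARMs against SMs, in HFD mice (left) and ND mice (middle), and the HFD change less the ND change (right). Points are edgeR estimates with bars of 1 standard error, filled points passed the test, and dotted lines mark a fold change of 1.5. Lrp8 and Lrp3 lie at -0.74 and -0.75 in HFD mice and Sorl1 at 1.05, while Lrp1, Lrp5, Lrp10 and Lrp12 lie between 0.01 and 0.13.

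Lrp8 (Entrez 16975), a reelin and apolipoprotein E receptor, lies at chr4:107802261-107876840 on the plus strand of GRCm38. Its level per gene length was 1.23 and 1.47 FPKM (fragments per kilobase of transcript, scaled to library size) in HFD ARMs against 2.08 and 2.30 FPKM in HFD SMs. The ARM and SM libraries did not overlap, and both ARM libraries were the low ones. The mean was 1.35 ± 0.170 FPKM (SD, n = 2) in ARMs and 2.19 ± 0.156 (SD, n = 2) in SMs. The log2 fold change was -0.74 (standard error 0.12), with an adjusted p of 0.00331 (Benjamini-Hochberg, quasi-likelihood test of edgeR). Without replicate 1 of the HFD ARMs it was -0.63 and no longer passed. In ND mice Lrp8 was at 2.04 and 1.44 FPKM in ARMs and 2.23 and 1.83 FPKM in SMs. There the groups overlapped, with the lowest value in replicate 2 of the ARMs. A log2 fold change of -0.22 (standard error 0.18) did not pass (adjusted p = 0.655, Benjamini-Hochberg, quasi-likelihood test of edgeR). It ranged from -0.50 (without replicate 1 of the ND ARMs) to 0.00 (without replicate 2) and did not pass in any of these fits.

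Lrp3 (Entrez 435965), a CUB-domain member whose ligands are little known, lies at chr7:35200027-35215498 on the minus strand. It was at 1.84 and 2.17 FPKM in HFD ARMs against 3.16 and 3.46 FPKM in HFD SMs. Both ARM libraries were below both SM libraries. Its log2 fold change on HFD was -0.75 (standard error 0.12), with an adjusted p of 0.00444 (Benjamini-Hochberg, quasi-likelihood test of edgeR). Without replicate 1 of the HFD ARMs it was -0.65 and no longer passed. In ND mice Lrp3 was at 0.57 and 0.52 FPKM in ARMs and 0.51 and 0.56 FPKM in SMs. These 4 values overlapped within a narrow range, and the log2 fold change of 0.04 (standard error 0.32) rests on 29 to 36 counts per library.

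The counts of Lrp3 are uncertain, because its gene overlaps another. The 3′ end of Lrp3 shares 377 exonic bases with Slc7a10, a neutral amino acid transporter that is abundant in adipocytes, which lies at chr7:35186385-35201114 on the plus strand. The use of strand in counting is not given in the sources used here, and without it reads from the overlap cannot be told apart. In HFD mice the estimated counts of Lrp3 were 137.27 and 159.79 in ARMs and 242.78 and 264.13 in SMs. Those of Slc7a10 were 26.73 and 23.21 in ARMs and 7.22 and 6.87 in SMs. None of these 8 values is a whole number, but the 2 genes summed to 164, 183, 250 and 271 counts, whole in each HFD library to within 0.015. In the ND libraries both genes had whole counts. Slc7a10 by itself moved the other way from Lrp3, its log2 fold change being 1.84 in HFD ARMs (standard error 0.41, adjusted p = 0.019, Benjamini-Hochberg, quasi-likelihood test of edgeR). That call rests on few counts and did not hold in DESeq2 or with any 1 library left out (1.71 to 1.96). With the counts of both genes summed, the log2 fold change was -0.56 (adjusted p = 0.0133, Benjamini-Hochberg, quasi-likelihood test of edgeR). That is below the fold threshold, so Lrp3 no longer passed, although both ARM libraries still had fewer counts than both SM libraries.

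**Figure D2:**
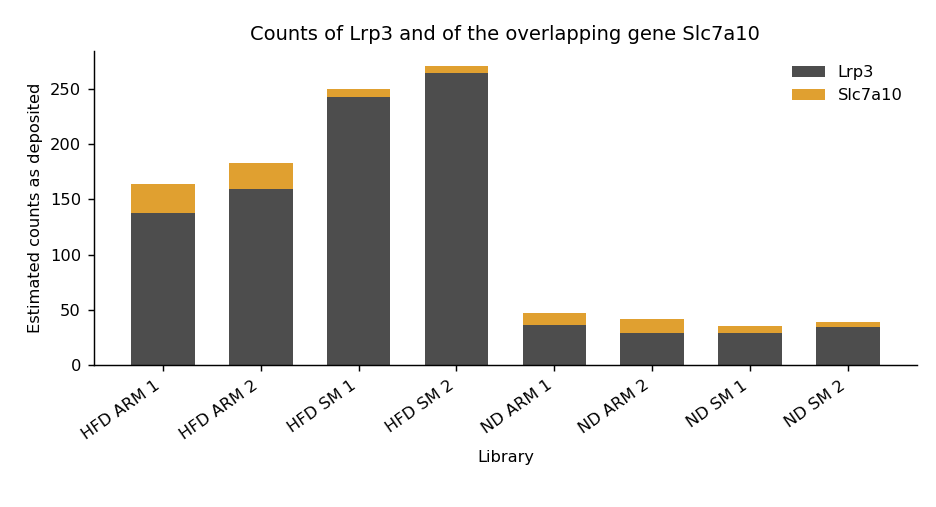
Estimated counts as deposited of Lrp3 (grey) and of the overlapping gene Slc7a10 (orange) in the 8 libraries, stacked, with 1 bar per library. Summed counts were 164 and 183 in HFD ARMs, 250 and 271 in HFD SMs, and 35 to 47 in the ND libraries.

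Lrp8, Vldlr and, in 1 library, Lrp5 also had estimated counts that were not whole in HFD mice, and the counts of all 9 members were whole in ND mice. For Lrp8 the counts were 165.83 and 194.84 in HFD ARMs and 291.4 and 321 in HFD SMs. The antisense genes Lrp8os1 and Lrp8os2 lie within the span of Lrp8 and share no exonic base with it. Lrp10 shares 475 exonic bases with the antisense gene Gm10366, and Sorl1 shares 185 with Gm16214, and neither antisense gene was listed in the tables. The counts of Lrp10 and Sorl1 were whole in every library. With neither antisense gene listed, this cannot show whether reads were shared. Reads of the other strand could still be counted in Lrp10 and Sorl1.

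Because Lrp8 and Lrp3 fell together in HFD ARMs while Sorl1 rose, their promoters are shown. RefSeq promoters of build GRCm38.p6, from 250 bases before to 50 after a start site, matched 6 of the 9 members (Vldlr, Lrp1, Lrp3, Lrp8, Lrp10 and Sorl1). The first listed start is shown for each gene, 5′ to 3′ on the gene's strand. Capitals mark matches, on either strand, to the GC box, an ETS core, the AP-1 site, the E-box CACGTG or the TATA box.
Lrp8 promoter, chr4:107802635-107802934, plus strand: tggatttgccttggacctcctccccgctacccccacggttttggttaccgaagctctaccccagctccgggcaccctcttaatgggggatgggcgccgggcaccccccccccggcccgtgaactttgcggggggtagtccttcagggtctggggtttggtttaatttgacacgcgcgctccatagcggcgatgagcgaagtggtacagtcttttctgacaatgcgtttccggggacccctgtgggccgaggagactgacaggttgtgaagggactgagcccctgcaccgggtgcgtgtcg
Lrp3 promoter, chr7:35215296-35215595, minus strand: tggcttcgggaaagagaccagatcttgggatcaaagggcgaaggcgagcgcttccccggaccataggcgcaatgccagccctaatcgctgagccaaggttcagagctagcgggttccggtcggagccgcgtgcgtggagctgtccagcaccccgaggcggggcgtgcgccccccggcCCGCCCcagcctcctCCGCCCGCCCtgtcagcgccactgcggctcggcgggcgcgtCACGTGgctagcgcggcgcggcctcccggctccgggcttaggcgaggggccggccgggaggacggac
Sorl1 promoter, chr9:42124248-42124547, minus strand: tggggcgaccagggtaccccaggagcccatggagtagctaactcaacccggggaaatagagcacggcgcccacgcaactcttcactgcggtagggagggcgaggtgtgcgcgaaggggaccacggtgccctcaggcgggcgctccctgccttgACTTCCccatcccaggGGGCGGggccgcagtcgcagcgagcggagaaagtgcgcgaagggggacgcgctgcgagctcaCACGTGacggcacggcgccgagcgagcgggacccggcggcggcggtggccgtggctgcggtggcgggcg
The Lrp8 promoter held none of the 5 motifs. The Lrp3 promoter held 3 GC boxes, of which 2 overlap, and 1 E-box, and the Sorl1 promoter held 1 GC box, 1 ETS core and 1 E-box. Of 32851 promoters of this length, 35.7% held the GC box GGGCGG, 23.8% held the ETS core GGAAGT, 7.81% held the AP-1 site (TGA and TCA with 1 base between), 7.15% held the E-box and 13.6% held the TATA box TATAAA. The GC content was 62.7% for Lrp8, 73.0% for Lrp3 and 72.3% for Sorl1, against a median of 52.7%. These are matches of letters, and binding was not measured here.

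Sorl1 (Entrez 20660), the sorting receptor of the family, lies at chr9:41964720-42124297 on the minus strand. It was at 1.42 and 1.82 FPKM in HFD ARMs against 0.65 and 0.84 FPKM in HFD SMs. Both ARM libraries were above both SM libraries. The log2 fold change was 1.05 (standard error 0.16), with an adjusted p of 0.00235 (Benjamini-Hochberg, quasi-likelihood test of edgeR). Without replicate 2 of the HFD ARMs it was 0.88 and no longer passed. In ND mice Sorl1 was at 1.36 and 2.44 FPKM in ARMs and 1.5 and 1.52 FPKM in SMs. The ARM libraries lay on either side of the SM libraries, and 1 ARM library set the mean. The log2 fold change of 0.30 (standard error 0.21) did not pass, and it turned to -0.16 when replicate 2 of the ND ARMs was left out and grew to 0.65 when replicate 1 was. Without replicate 1 it passed (adjusted p = 0.035, Benjamini-Hochberg, quasi-likelihood test of edgeR).

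Vldlr (Entrez 22359), the receptor for triglyceride-rich lipoproteins, lies at chr19:27216484-27254231 on the plus strand and had the fewest counts of the family in HFD mice. It was at 0.55 and 0.73 FPKM in ND ARMs against 0.34 and 0.29 FPKM in ND SMs. Both ARM libraries were above both SM libraries, with 69 counts in each ARM library and 33 and 36 in the SM libraries. This is a log2 fold change of 1.0 (standard error 0.27), with an adjusted p of 0.0475 (Benjamini-Hochberg, quasi-likelihood test of edgeR). It lay at 0.91 to 1.09 with any 1 library left out, and passed in none of these 4 fits, nor in DESeq2 with all 4 libraries kept. In HFD mice Vldlr was at 0.21 and 0.34 FPKM in ARMs against 0.15 and 0.18 FPKM in SMs. Both ARM libraries were again the higher ones, but the log2 fold change of 0.81 (standard error 0.32) did not pass (adjusted p = 0.152, Benjamini-Hochberg, quasi-likelihood test of edgeR). It ranged from 0.49 (without replicate 2 of the HFD ARMs) to 1.07 (without replicate 1) and passed in none of these fits.

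Lrp1 (Entrez 16971), the scavenging receptor, had the highest mean FPKM of the family in each group. In ND SMs its libraries overlapped with those of Lrp6. Lrp1 was at 60.2 and 63.3 FPKM in HFD ARMs and 49.25 and 61.7 FPKM in HFD SMs. In ND mice it was at 63.2 and 75.9 FPKM in ARMs and 63.5 and 65.2 FPKM in SMs. In both diets the ARM and SM libraries overlapped, and the log2 fold changes of 0.13 (HFD, standard error 0.09) and 0.12 (ND, standard error 0.11) did not pass.

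The 2 Wnt co-receptors did not pass in either diet. Lrp6 (Entrez 16974) was at 40.9 and 35.7 FPKM in HFD ARMs and 42.8 and 45.6 FPKM in HFD SMs. It was at 56.7 and 54.95 FPKM in ND ARMs and 58.5 and 66.8 FPKM in ND SMs. Both ARM libraries were below both SM libraries in each diet. The log2 fold changes were -0.23 in HFD mice (standard error 0.08, adjusted p = 0.0998) and -0.16 in ND mice (standard error 0.10, adjusted p = 0.534), by the quasi-likelihood test of edgeR with Benjamini-Hochberg adjustment. Lrp5 (Entrez 16973), which acts in the same complex, was at 13.4 and 13.7 FPKM in HFD ARMs and 12.9 and 13.6 FPKM in HFD SMs. It was at 18.2 and 20.1 FPKM in ND ARMs and 18.1 and 19.2 FPKM in ND SMs. The groups overlapped in both diets, with log2 fold changes of 0.01 (standard error 0.06) and 0.06 (standard error 0.10).

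Of the CUB-domain group, neither Lrp10 nor Lrp12 passed in either diet. Lrp10 (Entrez 65107), which cycles between the Golgi and endosomes, was at 40.1 and 39.7 FPKM in HFD ARMs and 37.6 and 39.1 FPKM in HFD SMs. It was at 38.4 and 39.3 FPKM in ND ARMs and 39.0 and 36.8 FPKM in ND SMs. In HFD mice both ARM libraries were above both SM libraries, and in ND mice the groups overlapped. The log2 fold change was 0.02 in both diets, with standard errors of 0.07 and 0.10, so a change past the fold threshold of 1.5 lies many standard errors away. Lrp12 (Entrez 239393) was at 8.33 and 9.62 FPKM in HFD ARMs and 7.66 and 8.69 FPKM in HFD SMs. It was at 14.97 and 12.9 FPKM in ND ARMs and 13.6 and 13.7 FPKM in ND SMs. Its groups overlapped in both diets, with log2 fold changes of 0.11 (standard error 0.09) and 0.04 (standard error 0.11).

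**Figure D3:**
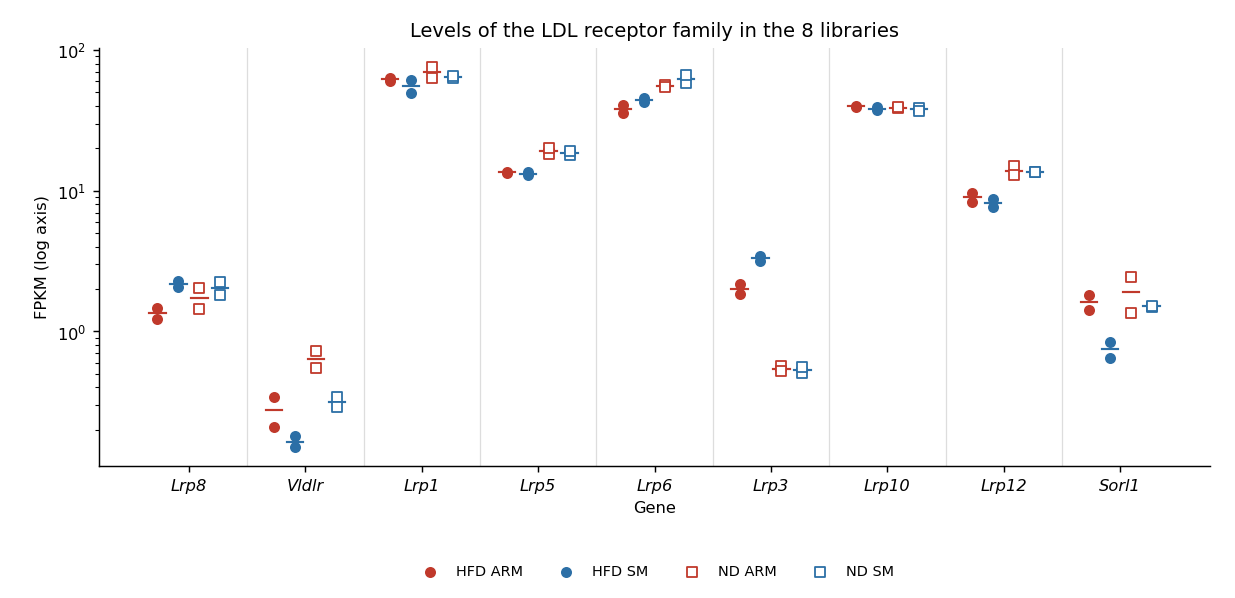
Level of each family member in every library, in FPKM on a log axis, with 1 point per library and a short line at the mean of each group. Filled circles are HFD and open squares ND, red ARMs and blue SMs. Lrp1, Lrp6 and Lrp10 lie above 35 FPKM in all 8 libraries, and Lrp3 lies at 1.84 to 3.46 FPKM in HFD mice against 0.51 to 0.57 in ND mice.

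Whether a member's change depends on diet was tested as an interaction, fitted to all 8 libraries. No member passed at an adjusted p under 0.05 in the quasi-likelihood test of edgeR with Benjamini-Hochberg adjustment, against 0.165% of the 13358 genes tested, and DESeq2 also called 0 members. At an unadjusted p under 0.05 there were 3 members in edgeR, namely Lrp3, Lrp8 and Sorl1, and 1 in DESeq2. Of all 13358 genes, 1017 were under that threshold in edgeR and 620 in DESeq2. The HFD change less the ND change was -0.81 for Lrp3 (standard error 0.28), with an adjusted p of 0.405. For Lrp8 it was -0.53 (standard error 0.24, adjusted p = 0.623), and for Sorl1 0.74 (standard error 0.31, adjusted p = 0.597), in the same edgeR fit and Benjamini-Hochberg adjustment. With a library left out the difference ranged from -0.75 to -0.21 for Lrp8 and from 0.42 to 1.21 for Sorl1. Without replicate 2 of the ND ARMs, the Sorl1 library at 2.44 FPKM, the difference for Sorl1 was 1.21 and passed (adjusted p = 0.0496, Benjamini-Hochberg, quasi-likelihood test of edgeR). The falls of Lrp8 and Lrp3, which passed in HFD mice and not in ND mice, are therefore not shown to differ between the diets. For the other 6 members the difference lay between -0.20 (Vldlr) and 0.05 (Lrp12).

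Within each group the members kept a wide range of levels. By mean FPKM, Lrp1 came first, Lrp6 and Lrp10 followed, then Lrp5 and Lrp12. Those 5 members were at 7.66 FPKM or more in every library, and Lrp1, Lrp6 and Lrp10 made up 80.8% to 84.2% of the family's summed FPKM in a library. The 4 members with a call in either diet, Lrp8, Lrp3, Sorl1 and Vldlr, were the 4 at the low end, at 3.46 FPKM or less in every library. The order at that end differed between the groups. In HFD SMs it was Lrp3, Lrp8, Sorl1 and Vldlr, with no overlap of neighbors. In HFD ARMs it was Lrp3, Sorl1, Lrp8 and Vldlr, and the libraries of Sorl1 and Lrp8 overlapped. In ND ARMs it was Sorl1, Lrp8, Vldlr and Lrp3, and Sorl1 overlapped with Lrp8 and Vldlr with Lrp3. In ND SMs it was Lrp8, Sorl1, Lrp3 and Vldlr, with no overlap of neighbors. At the high end, Lrp10 and Lrp6 overlapped in HFD ARMs, and Lrp1 and Lrp6 in ND SMs.

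HFD and ND levels come from separate tables and are set side by side without a test. Fractions appeared in the estimated counts of 32.3% to 32.9% of genes per HFD library but of 8.55% to 9.36% per ND library, and the reason for this was not tested. Lrp3 differed most, with a mean FPKM 6.19-fold higher in HFD SMs than in ND SMs and 3.68-fold higher in HFD ARMs than in ND ARMs. This is also the gene whose HFD counts become whole when added to those of Slc7a10, and whether the diets or another difference between the tables set its level cannot be told apart. Sorl1 in SMs was 2.03-fold lower in HFD than in ND mice, with no overlap, while in ARMs its libraries overlapped. Vldlr was 2.33-fold lower in ARMs and 1.91-fold lower in SMs of HFD mice. Lrp5, Lrp6 and Lrp12 were 1.41-fold to 1.67-fold lower in HFD mice in both cell types, with no overlap. For Lrp5 in SMs the log2 difference was -0.49 in FPKM and -0.38 in CPM. The share of all genes without overlap between the diets was not computed, so the order of these libraries is a description. Lrp8 overlapped between the diets in both cell types, and Lrp10 differed by at most 1.03-fold in FPKM (log2 differences up to 0.09 in TPM and 0.13 in CPM).

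Both cell types carried macrophage RNA at a like level, and the adipocyte and endothelial sums were higher in ARMs. The 12 macrophage markers, led by Lyz2, summed to 16000 and 15300 FPKM in HFD ARMs and 16600 and 15900 in HFD SMs. In ND mice they summed to 17600 and 18000 FPKM in ARMs and 18400 and 17800 in SMs, and 0 of 12 passed in either diet by edgeR, with 5 at an unadjusted p under 0.05 in HFD mice and 1 in ND mice, and 0 called by DESeq2 in either diet. The 14 adipocyte markers, led by Fabp4, which macrophages also express, summed to 599 and 670 FPKM in HFD ARMs and 202 and 163 in HFD SMs. In ND mice they summed to 347 and 532 FPKM in ARMs and 191 and 253 in SMs. Of these 14 markers 12 were higher in HFD ARMs and 11 in ND ARMs, beside 4.46% and 3.55% of all genes, where DESeq2 called 12 and 7, and none was at 0 in all libraries of a diet. The 10 endothelial markers, led by Cldn5, summed to 54.7 and 52.0 FPKM in HFD ARMs and 22.4 and 15.5 in HFD SMs, and 9 of 10 were higher in ARMs. In ND mice they summed to 13.7 and 29.9 FPKM in ARMs and 11.4 and 13 in SMs. There 1 of 10 was higher by edgeR, with 7 at an unadjusted p under 0.05, and 0 were called by DESeq2. None of the 10 was at 0 in all libraries of a diet. Sorl1 in HFD ARMs and Vldlr in ND ARMs were higher beside these higher sums. Within groups the order of the libraries did not always match. In ND ARMs replicate 2 was the higher by FPKM for Sorl1, Vldlr and both sums. In HFD ARMs replicate 2 was the higher for Sorl1, Vldlr and the adipocyte sum, and the lower for the endothelial sum. In HFD SMs replicate 2 was the higher for Sorl1 and Vldlr and the lower for both sums. In ND SMs replicate 2 was the higher for Sorl1 and both sums and the lower for Vldlr. Both cell types were sorted as macrophages by flow cytometry, and how much RNA of other cells remained after the sort was not tested. The part of adipocytes and endothelial cells in the levels of Sorl1 and Vldlr was not tested. In such bulk libraries fewer cells that carry a transcript and less of it per cell cannot be told apart.

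Other marker lists moved in the same direction in part, and of all genes 4.46% were higher and 0.292% lower in HFD ARMs, and 3.55% and 0.129% in ND ARMs. Of 9 fibroblast and progenitor markers, led by Gsn, 5 were higher in HFD ARMs and 8 in ND ARMs (3 and 8 by DESeq2). Their sums were 351 and 413 FPKM in HFD ARMs against 257 and 250 in HFD SMs, and 423 and 633 in ND ARMs against 187 and 237 in ND SMs. Of 6 lymphatic endothelial markers, led by Pdpn, 3 were higher in HFD ARMs and 4 in ND ARMs, with sums of 9.34 and 11.6 FPKM against 4.84 and 7.19, and 10.3 and 11.3 against 2.90 and 3.48 (2 and 3 called by DESeq2). Of 6 mesothelial markers, led by Upk3b, 0 passed in HFD mice by edgeR, with 1 at an unadjusted p under 0.05 and 0 called by DESeq2, and 5 were higher in ND ARMs, 4 of them by DESeq2. Of 8 pericyte and smooth muscle markers, led by Rgs5, 3 were higher in ARMs of each diet (3 in HFD and 2 in ND mice by DESeq2). Of the T and NK cell, B cell and neutrophil lists, 3 genes each were tested in HFD mice and 2, 3 and 5 in ND mice, of 9, 6 and 8 listed. In HFD ARMs 1 T and NK cell gene, Cd4, was higher, Cd8a and Klrb1c did not pass, and Cd3d, Cd3e and Cd3g were too low to test. Neutrophil markers, led by S100a9, summed to 10.4 and 32.3 FPKM in ND ARMs against 63.3 and 46.9 in ND SMs, where 1 of 5 passed as lower by edgeR, with 3 lower at an unadjusted p under 0.05, and 0 passed by DESeq2. In HFD mice the same sums went the other way, 12.8 and 14.1 FPKM in ARMs against 8.53 and 7.98 in SMs, with 0 of 3 passing by edgeR or DESeq2 and 1 at an unadjusted p under 0.05. Their part in the levels of the family was not tested either.

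**Figure D4:**
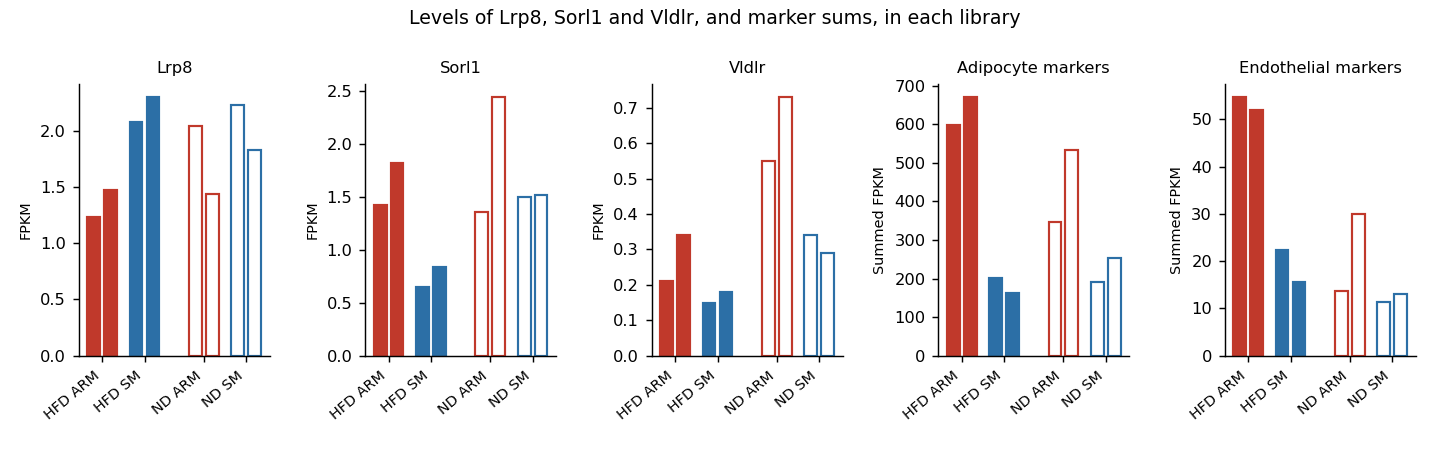
Level of Lrp8, Sorl1 and Vldlr in FPKM, and summed FPKM of 14 adipocyte and 10 endothelial markers, in each library, with 1 bar per library from 0. Filled bars are HFD and open bars ND, red ARMs and blue SMs. In HFD mice Lrp8 is lower in both ARM libraries while Sorl1, Vldlr and both marker sums are higher.

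Of 17 ligand genes tested, 4 were higher in HFD ARMs and 7 in ND ARMs by edgeR, beside 4.46% and 3.55% of all genes, and DESeq2 called 4 in each diet. By edgeR 0 were lower in either diet, where 2 lower genes had an unadjusted p under 0.05 in HFD mice and 0 in ND mice, and DESeq2 called 0 lower. The median log2 fold change of the list was 0.29 in HFD mice and 0.56 in ND mice. Apoe, which encodes a ligand of Lrp1, Lrp8 and Vldlr, was the most abundant by mean FPKM. It was at 5881 and 5318 FPKM in HFD ARMs and 6534 and 6102 in HFD SMs. It was at 7769 and 9567 FPKM in ND ARMs and 8922 and 8098 in ND SMs, and did not pass in either diet. Selenop, which encodes a selenium carrier that Lrp8 takes up, was next, at 5535 and 5342 FPKM in HFD ARMs and 6536 and 6027 in HFD SMs. It was at 5014 and 4984 FPKM in ND ARMs and 5258 and 5369 in ND SMs, and did not pass the fold threshold in either diet.

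Lpl, whose product hands lipoproteins to Vldlr and Lrp1, was at 182 and 221 FPKM in HFD ARMs and 124 and 127 in HFD SMs, a log2 fold change of 0.65 (standard error 0.08). Mmp13, a protease cleared by Lrp1, had log2 fold changes of 1.10 (HFD) and 1.14 (ND). Thbs1, a matrix protein cleared by Lrp1, had 0.97 and 0.88. In ND mice Plat (1.45), Clu (1.42) and Ctgf (1.72) also had positive log2 fold changes that passed, as a plasminogen activator, a lipoprotein chaperone and a matrix signal. Reln, the ligand of Lrp8 and Vldlr that also marks lymphatic vessels, was near its floor in SMs. It had 23 and 19 counts in HFD ARMs against 4 and 2 in HFD SMs, and 18 and 14 counts in ND ARMs against 0 and 2 in ND SMs. The ND ARM level was at least 5.30-fold higher than a floor of 3 counts per SM library.

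Of 18 chaperones and adaptors of the family tested, 1 was higher in HFD ARMs and 0 were lower (5.56% of the list, beside 4.75% of all genes), and in ND mice 0 of 18 passed by edgeR, with 2 at an unadjusted p under 0.05 and 0 called by DESeq2. Dab2, an adaptor of Lrp1, was the most abundant of the list, at 490 and 445 FPKM in HFD ARMs, 498 and 464 in HFD SMs, 717 and 731 in ND ARMs and 708 and 704 in ND SMs. Picalm, a clathrin adaptor, followed at 273 to 313 FPKM in HFD mice and 373 to 404 in ND mice, and neither passed.

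Of 11 genes of the reelin signal tested, 2 were higher in HFD ARMs (Reln and Src) and 1 in ND ARMs (Reln), beside 4.46% and 3.55% of all genes. DESeq2 called 1 of the 11 in HFD mice, which was not Src, and 0 in ND mice. Src, a kinase that acts after Lrp8 and Vldlr, was at 2.14 and 2.15 FPKM in HFD ARMs and 1.12 and 1.37 in HFD SMs, a log2 fold change of 0.74 (standard error 0.16), and did not pass without either HFD ARM library. The most abundant were Rap1a, at 70.2 to 79.7 FPKM in HFD mice and 79.6 to 111 in ND mice, and Crk, at 41.5 to 49.0 and 41.4 to 46.6, and neither passed. The median log2 fold change of the list was 0.00 in HFD mice and 0.08 in ND mice.

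Around the Wnt co-receptors Lrp5 and Lrp6, 2 of 30 genes of the receptor complex passed in HFD mice and 2 of 27 in ND mice, all higher in ARMs (6.67% and 7.41%, beside 4.75% and 3.68% of all genes). DESeq2 called 1 in each diet. Fzd4, a Wnt receptor also found in vessels, was at 2.02 and 1.77 FPKM in HFD ARMs against 0.76 and 0.64 in HFD SMs, a log2 fold change of 1.40. It was at 1.06 and 1.33 FPKM in ND ARMs against 0.40 and 0.61 in ND SMs, a log2 fold change of 1.24. The inhibitors Apcdd1 (1.62, HFD) and Sfrp1 (1.28, ND) were the others. With a library left out these ranged from 1.28 to 2.07 for Apcdd1 and from 0.97 to 1.54 for Sfrp1. Neither passed in every alternative. Ctnnb1, which encodes beta-catenin, was the most abundant at 83.2 to 89.2 FPKM in HFD mice and 93.6 to 105 in ND mice, followed by Csnk1a1, and neither passed. Of the genes listed as Wnt targets, 1 of 7 was higher in HFD ARMs and 2 of 8 in ND ARMs, and DESeq2 called 1 in each diet. Tcf7l1, itself a transcription factor of the Wnt pathway, had log2 fold changes of 1.27 and 1.62, and Myc one of 0.81 in ND mice. Wnt activity was not tested. Ccnd1, the most abundant target, was at 24.9 and 25.7 FPKM in HFD ARMs and 16.8 and 17.8 in HFD SMs, short of the fold threshold.

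Proteases and the secretase that shed and cut the receptors had 2 of 15 genes higher in HFD ARMs and 3 of 15 in ND ARMs, beside 4.46% and 3.55% of all genes. DESeq2 called 2 and 1. Timp3, an inhibitor of sheddases, had log2 fold changes of 1.18 (HFD) and 1.21 (ND), and Mmp14, a membrane protease that can cut Lrp1, 0.86 and 1.02. Bace2 had 17 and 20 counts in ND ARMs against 1 and 2 in ND SMs, at least 6.21-fold above a floor of 3 counts per library. The most abundant, Psenen and Furin, did not pass. Sort1, the VPS10P relative of Sorl1, was at 3.44 and 4.09 FPKM in HFD ARMs against 2.06 and 1.94 in HFD SMs. Its log2 fold change was 0.88 (standard error 0.10) in HFD mice, where Sorl1 also rose. In ND mice Sort1 was at 4.61 and 5.81 FPKM in ARMs against 3.62 and 3.99 in SMs, also higher in both ARM libraries, and its log2 fold change of 0.46 did not pass. It was the only 1 of the 4 genes of that list tested, and Sorcs2, at 0.02 to 0.15 FPKM, was too low to test.

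Of 14 other genes of lipoprotein and lipid uptake, 2 were higher in ARMs of each diet (14.3% of the list, beside 4.46% of all genes in HFD and 3.55% in ND mice). They were the scavenger receptors Olr1 (log2 fold change 0.95) and Scarb1 (0.69) in HFD mice, and Olr1 (0.78) and Cxcl16 (0.72) in ND mice. Cd68 was at 1058 to 1265 FPKM in HFD mice and 901 to 1126 in ND mice, Cd36 at 698 to 811 and 779 to 886, and neither passed. DESeq2 called 1 in each diet. In the 8 pathway lists no gene passed as lower in ARMs by edgeR or DESeq2. With 0.292% of all genes lower in HFD ARMs and 0.129% in ND ARMs, that does not set the family apart from the lists, and Selenop was lower in HFD ARMs by adjusted p alone (0.0434, Benjamini-Hochberg, quasi-likelihood test of edgeR). These lists and the family were chosen with earlier results known, and the counts are descriptions.

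**Figure D5:**
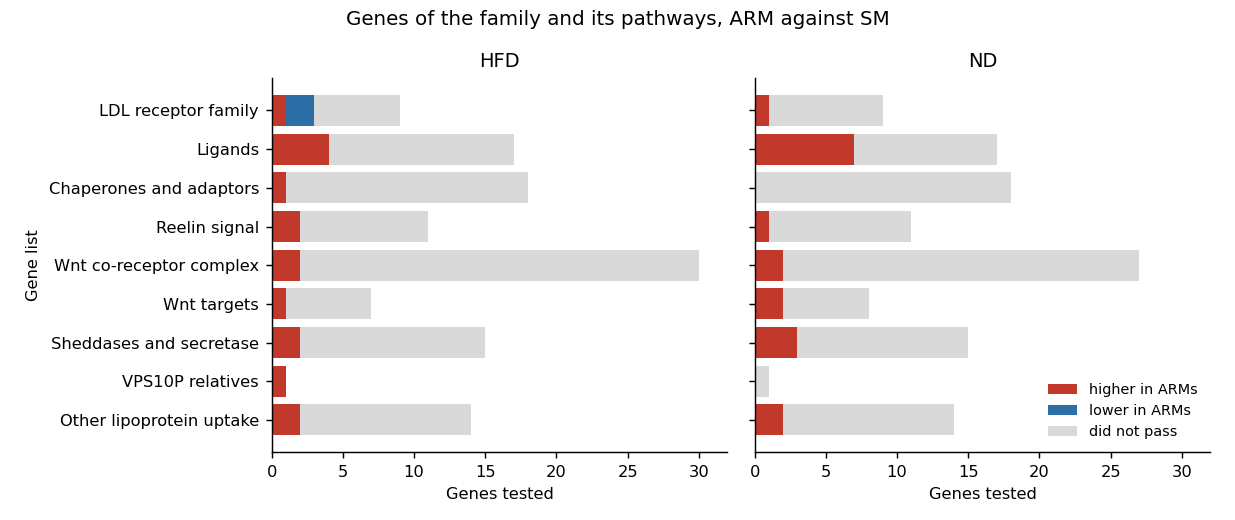
Number of genes tested in the family and in 8 lists of its pathways that were higher in ARMs (red), lower in ARMs (blue) or did not pass (grey), in HFD and ND mice. The 2 genes lower in ARMs, of 9 in the LDL receptor family in HFD mice, are Lrp8 and Lrp3. Their lower level was known when the family was chosen. Lrp3 no longer passed when its counts were summed with those of Slc7a10.

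The genes whose levels followed Lrp8 most closely over the 8 libraries, after each diet's mean was subtracted, were Exoc3, Grk6 and Tcta, with a Pearson r of 0.989, 0.981 and 0.977 on log2(CPM + 1) among 12268 genes. For Lrp3 they were Arsb, Rhobtb2 and Septin3 (Entrez 24050), with r of 0.983, 0.982 and 0.977. These are the highest of 12268 values over 8 libraries that include the ARM and SM groups, and are a description. None of the 6 genes passed both thresholds in HFD mice. Tcta was at 4.62 and 5.60 FPKM in HFD ARMs and 6.77 and 7.15 in HFD SMs, and Arsb, a lysosomal sulfatase, at 22.9 and 25.0 FPKM in HFD ARMs and 29.4 and 29.8 in HFD SMs.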

How the data were processed

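The authors deposited estimated (expected) counts, FPKM and TPM per gene, in 1 table for each diet, and the aligner, the annotation and the use of strand in counting are not given in the sources used here. Deposited estimated counts, rounded to whole numbers, were tested, the FPKM of the authors give the levels per gene length, and the deposited TPM served as an alternative for levels between the diets. Libraries were grouped by the cell type and diet of their labels, with 2 per group, at the total counts given in the report. Genes were kept by filterByExpr and tested with edgeR 4.0.16 (TMM factors, quasi-likelihood F test, Benjamini-Hochberg adjustment over all genes tested) in R 4.3.3, separately in each diet. To pass, a gene needed an adjusted p under 0.05 together with more than a 1.5-fold change. Dependence on diet was tested as an interaction over the genes in both tables at an adjusted p under 0.05. Alternatives were DESeq2 1.42.0, limma 3.58.1 on log2 FPKM, other scaling, filters and thresholds, a replicate block, and each library left out. The sum of Lrp3 and Slc7a10 was added after the data were seen. In each pathway list genes that passed, at most 6 and not always all of them, and the 2 with the highest mean FPKM are named. The family and all lists were chosen with earlier results of these data known. Coordinates and overlaps are from GENCODE M21, promoters from RefSeq on GRCm38.p6, and figures were drawn in Python 3.11.15 with matplotlib 3.10.9. Protein features, isoforms and other tissues were not analysed here.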

Additional observations from a re-analysis of the deposited data

How the results depend on the processing

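In HFD mice 3 members passed, and 3 also passed with DESeq2. The count was 0 without a filter on low counts, 0 with limma on log2(FPKM + 1) with or without a filter, 2 with limma on log2(FPKM + 0.1), 4 at a log2 fold change past 0.6 with an unadjusted p under 0.05 (the looser threshold below), and 1 to 3 with a library left out. With the counts of Lrp3 and Slc7a10 summed, an alternative chosen after seeing the data, it was 2. The log2 fold change kept its sign throughout for Lrp8 (-0.75 to -0.44, and -0.85 to -0.63 with a library left out), Lrp3 (-0.76 to -0.52, and -0.85 to -0.65) and Sorl1 (0.58 to 1.08, and 0.88 to 1.23). In ND mice 1 member passed, and 0 with DESeq2, 0 with limma on log2(FPKM + 1), with or without a filter, 0 with log2(FPKM + 0.1), and 0 to 1 with a library left out. The filter of limma removed Vldlr in HFD mice and Vldlr and Lrp3 in ND mice. Vldlr in ND mice ranged from 0.32 to 1.01. The difference between diets passed for 0 members, and for 0 to 1 with a library left out. Of all genes it passed for 22, against 96 with DESeq2, 187 with a replicate block and 0 to 102 with a library left out. With a library left out the sign could reverse in HFD mice for Lrp1 (-0.02 to 0.30), Lrp5 (-0.02 to 0.04) and Lrp10 (-0.02 to 0.06). In ND mice it could reverse for Lrp1 (-0.03 to 0.25), Lrp3 (-0.03 to 0.12), Lrp5 (-0.01 to 0.12), Lrp10 (-0.03 to 0.07), Lrp12 (-0.07 to 0.13) and Sorl1 (-0.16 to 0.65). The difference between diets could reverse for Vldlr (-0.52 to 0.06), Lrp1 (-0.16 to 0.17), Lrp5 (-0.10 to 0.01), Lrp6 (-0.21 to 0.04), Lrp10 (-0.06 to 0.04) and Lrp12 (-0.04 to 0.20), and with all libraries kept for Lrp1 (0.04 with library totals, 0.01 with DESeq2 and 0.01 with a replicate block) and Lrp10 (0.03 with library totals). Replicates share only a number between cell types, and a replicate block left 3 members in HFD mice (626 higher and 47 lower of all genes), 1 in ND mice (719 and 67) and 0 for the difference. Over all genes tested, the log2 difference of replicate 1 less replicate 2 in ARMs had a correlation with that in SMs of -0.0284 in HFD and 0.221 in ND mice. Of all genes, 595 were higher and 39 lower in HFD ARMs, against 167 and 14 without a filter, 922 and 95 at the looser threshold, 319 and 12, 382 and 23, and 33 and 2 with limma (log2(FPKM + 1), log2(FPKM + 0.1), no filter), 403 lower by adjusted p alone, and 198 to 587 higher and 16 to 58 lower with a library left out. In ND ARMs 442 were higher and 16 lower, against 273 and 7 with DESeq2, 794 and 94 at a log2 fold change past 0.6 with an unadjusted p under 0.05 (the looser threshold below), 202 and 12, 208 and 11, and 0 and 0 with limma (1915 genes at an unadjusted p under 0.05), 40 lower without a filter, 57 lower by adjusted p alone, and 171 to 617 higher and 15 to 44 lower with a library left out. Among pathway genes called in ND mice, the log2 fold change with a library left out ranged from 0.56 to 1.66 for Timp3, 0.47 to 1.09 for Myc, 0.53 to 1.15 for Thbs1, 0.67 to 1.30 for Mmp14, 1.16 to 2.60 for Ctgf and 2.96 to 6.99 for Reln, and each lost its call without replicate 2 of the ND ARMs. So did Cxcl16 (0.49 to 0.97), Fzd4 (0.97 to 1.57) and Tcf7l1 (1.14 to 2.0). In HFD mice Olr1 (0.59 to 1.23) and Lpl (0.52 to 0.77) lost their calls without replicate 2 of the HFD ARMs. The cause of these changes was not tested. The range for Reln in ND mice rests on SM libraries of 0 and 2 counts and is not exact. Vldlr had as few as 21.13 counts in an HFD library, a counting error of 21.8%. With 2 pooled libraries per group, smaller changes in the family could be missed.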
